A study of Mus musculus with 4 samples.

Results

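The type 2 cytokine genes Il4, Il5 and Il13 lie side by side on mouse chromosome 11, together with Rad50, Kif3a and Irf1. These 6 genes were taken by symbol from a table of read counts for 21937 genes, whatever their values. In the RefSeq gene order the row runs Kif3a, Il4, Il13, Rad50, Il5, Irf1, and no other named gene of the count table stands between them. The counts came from RNA sequencing of splenic CD4+ T cells of B6 mice aged 6 weeks, stimulated with PMA and ionomycin, drugs that switch on protein kinase C and calcium signalling in place of the antigen receptor. There was 1 library for each of 4 genotypes: wild type, Itch KO (Itchf/f Cd4cre, a floxed Itch allele with Cre driven from the Cd4 gene, so that deletion is limited to T lineage cells), WWP2 KO (WWP2-/-), and a library labelled DKO (Itch and WWP2). All 4 groups share the stimulation, and no unstimulated cells were analysed here. The duration of stimulation, the number of mice behind a library and the breeding of the double knockout were not given in the labels.

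IL-4, IL-5 and IL-13 are the signature cytokines of type 2 helper T cells. IL-4 drives type 2 differentiation and antibody switching to IgE, IL-5 supports eosinophils, and IL-13 acts on epithelium and mucus. The cluster is opened by GATA3 and STAT6 and fired by the calcium-dependent factor NFAT, and a locus control region for the cytokines sits inside the Rad50 gene. Rad50 itself encodes a subunit of a DNA break repair complex, Kif3a a motor of the kinesin-II family that works in cilia, and Irf1 a transcription factor of the interferon response. Itch is a ubiquitin ligase known to target JunB, a factor that acts on the Il4 promoter, and WWP2 is a related ligase of the NEDD4 family.

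The RefSeq promoter table (GRCm38.p6) held 5 of the 6 genes; Rad50 was not in it. The 250 bases before the start site are printed for the cytokine genes, which were high in both libraries with the Itch label. They are also printed for Kif3a, at 1.59-fold the wild-type level in Itch KO and 4.27-fold in the labelled double KO. Each is 5′ to 3′ on the strand of its gene. Capitals mark the NFAT core GGAAA and the GATA core GATA, searched on both strands (TTTCC and TATC are their complements). The windows of Il4, Il5 and Il13 precede the outermost start of the gene, and that of Kif3a an inner one.
Il4, chr11:53618666-53618915, minus strand: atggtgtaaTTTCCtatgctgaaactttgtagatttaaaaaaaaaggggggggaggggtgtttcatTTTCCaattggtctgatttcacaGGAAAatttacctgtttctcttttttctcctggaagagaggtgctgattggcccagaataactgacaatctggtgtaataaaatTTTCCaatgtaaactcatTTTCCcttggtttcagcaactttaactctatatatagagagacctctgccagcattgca
Il5, chr11:53720544-53720793, plus strand: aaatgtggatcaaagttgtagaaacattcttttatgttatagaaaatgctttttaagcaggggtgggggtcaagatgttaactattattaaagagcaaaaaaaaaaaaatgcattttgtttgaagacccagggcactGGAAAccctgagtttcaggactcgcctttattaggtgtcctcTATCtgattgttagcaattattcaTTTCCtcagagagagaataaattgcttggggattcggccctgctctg
Il13, chr11:53634703-53634952, minus strand: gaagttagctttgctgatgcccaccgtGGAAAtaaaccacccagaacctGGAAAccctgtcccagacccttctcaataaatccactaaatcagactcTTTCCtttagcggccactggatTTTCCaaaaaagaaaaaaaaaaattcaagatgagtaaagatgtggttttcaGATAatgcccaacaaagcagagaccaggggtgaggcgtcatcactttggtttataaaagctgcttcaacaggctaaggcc
Kif3a, chr11:53567119-53567368, plus strand: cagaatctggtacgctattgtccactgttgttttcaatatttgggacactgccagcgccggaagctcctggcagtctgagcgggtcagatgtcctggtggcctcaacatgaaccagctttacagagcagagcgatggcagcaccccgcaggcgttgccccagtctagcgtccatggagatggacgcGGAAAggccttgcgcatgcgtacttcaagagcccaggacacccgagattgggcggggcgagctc

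The Il4 window held 5 NFAT cores and 0 GATA cores, the Il13 window 4 and 1, the Il5 window 2 and 1, and the Kif3a window 1 and 0. The window before the outermost start of Irf1 also held 2 NFAT cores, with 0 GATA cores, and the counts depend on the start used: the window before an inner start of Il4 held 0 NFAT cores and 3 GATA cores, and that before an inner start of Irf1 held neither. Of 32851 mouse promoter windows of the same length, 55.6% held the NFAT core and 53.6% the GATA core, so a single match is common. The AP-1 site TGANTCA, found in 6.75% of the windows, was in none of these windows. On the gene's own strand, TATATA began 31 bases before the outermost start of Il4 (5.25% of windows hold it) and TATAAA began 29 bases before that of Il13 (12.4%); both strands were searched, and each gene had a second hit overlapping the first. These are letter matches, not measured binding sites.

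Total counts ranged from 17130747 to 17990392 per library, so depth limited the 4 libraries alike. The check of the labels turned up a contradiction. Wwp2 was read 1363 times in wild type, 1332 times in Itch KO and 4 times in WWP2 KO, but 1135 times in the labelled double knockout. That library is therefore called the library labelled double KO, or the labelled double KO, and a direction drawn from it belongs to the library rather than to a known genotype. Itch had 2083, 1914, 1996 and 2389 reads in the same order; a count over the whole gene also covers exons outside a floxed part and checks neither Itch label. Cd4, which encodes the coreceptor of these cells, had 4069, 4262, 2901 and 9441 reads.

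Levels are given as CPM, read counts brought to a common library size after TMM scaling (trimmed mean of M values, which evens out library composition), with 95% intervals that cover counting error only. Each genotype had a single library and hence no replicate error, so differences between single libraries carry no p-value. They are called at least 2-fold higher or lower by a size rule, which asks for a log2 ratio of at least 1 in either direction with a prior count of 2, a mean of at least 2 CPM over the libraries, and a counting interval of the fold that excludes 1. Such a call compares 2 libraries, not 2 genotypes. All 6 genes passed the minimum, but Il4 and Il5 were under 2 CPM in wild type and WWP2 KO and passed through the libraries where they were high, so they had to differ between libraries.

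Values of the libraries are listed in the order wild type, Itch KO, WWP2 KO, labelled double KO. Among the cytokines, Il5 differed most between libraries. Its reads numbered 11, 2290, 11 and 1990, or 0.634, 132, 0.642 and 107 CPM. Il13 had 117, 3206, 219 and 2997 reads in the same order, or 6.75, 185, 12.8 and 161 CPM. Il4 had 27, 236, 31 and 460 reads, or 1.56, 13.6, 1.81 and 24.7 CPM. Both libraries with the Itch label were high for all 3 cytokines and the other libraries were low, with no overlap of the counting intervals. The share of all genes separated in this way was not counted. Against wild type, the interval of the fold lay above 1 for 25.8% of all genes in Itch KO and 37.3% in the labelled double KO. The 3 cytokines did not share one order, however, since Il5 and Il13 were highest in Itch KO and Il4 was highest in the labelled double KO.

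The genes around them behaved differently. Rad50, which lies between Il13 and Il5, had 838, 845, 857 and 975 reads, or 48.3, 48.7, 50.0 and 52.5 CPM, and the 4 counting intervals overlapped. Kif3a had 85, 135, 97 and 389 reads, or 4.90, 7.78, 5.66 and 20.9 CPM, with the labelled double KO alone well above the rest. Irf1 was the most abundant of the 6, with 9151, 7536, 10929 and 7733 reads, or 528, 434, 637 and 416 CPM. It was lower in both libraries with the Itch label than in wild type and highest in WWP2 KO.

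**Figure D1:**
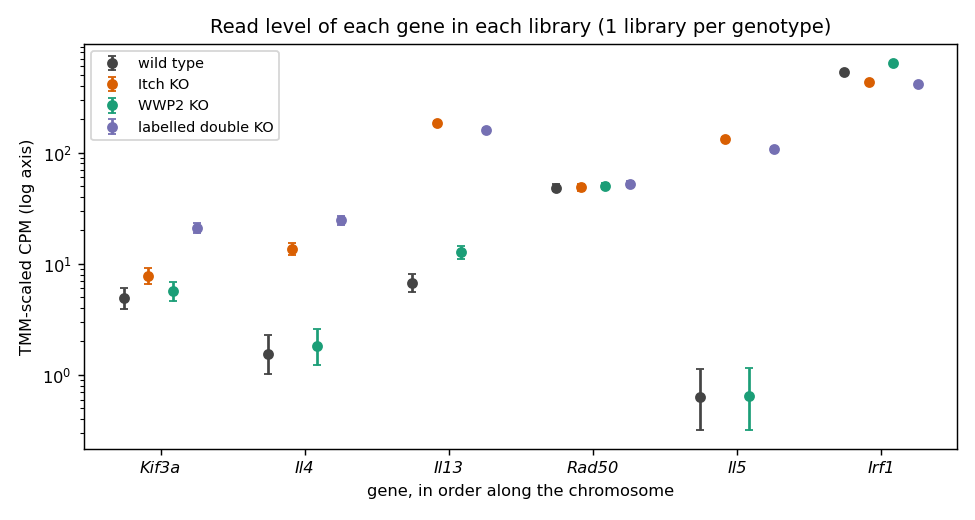
Level of each of the 6 genes (x axis, in chromosomal order) in TMM-scaled CPM on a log axis; points are single libraries and bars are 95% counting intervals, hidden where smaller than the point. Il4, Il13 and Il5 separate the libraries with the Itch label from the others, Rad50 lies between 48.3 and 52.5 CPM in all 4, and Kif3a is set apart in the labelled double KO at 20.9 CPM.

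To compare the genes with each other, levels were divided by exon length (union of exons, GENCODE M21). In wild type, Irf1 was highest at 158 CPM per kb, followed by Rad50 at 9.38, Il13 at 5.60, Il4 at 1.58, Kif3a at 1.52 and Il5 at 0.413. Il4 and Kif3a were indistinguishable there within counting error (1.04 to 2.30 and 1.21 to 1.87). In WWP2 KO the order was Irf1 at 191 CPM per kb, Il13 at 10.6, Rad50 at 9.70, Il4 at 1.84, Kif3a at 1.75 and Il5 at 0.417, and neither Il13 and Rad50 nor Il4 and Kif3a were separated beyond their intervals. In Itch KO, Il13 led at 153 CPM per kb, above Irf1 at 130, Il5 at 85.9, Il4 at 13.8, Rad50 at 9.45 and Kif3a at 2.41. In the labelled double KO the order was Il13 at 134 CPM per kb, Irf1 at 125, Il5 at 69.7, Il4 at 25.2, Rad50 at 10.2 and Kif3a at 6.47. The level of Il5 was thus below that of Rad50 in the libraries without the Itch label and above it in both libraries with that label.

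The first comparison set the Itch KO library against the wild-type library. In Itch KO, Il5 stood at 208 times its wild-type level (116 to 417), Il13 was 27.4-fold (22.8 to 33.2) and Il4 was 8.74-fold (5.85 to 13.5). These were 3 of the 6 genes at least 2-fold higher, and 0 were lower, beside 4.89% of all 9926 genes higher and 0.846% lower. By log2 ratio Il5 ranked first from the top of all genes tested, Il13 at position 3 and Il4 at position 28. Kif3a was 1.59-fold the wild-type level (1.20 to 2.11), Rad50 was 1.01-fold (0.915 to 1.11) and Irf1 was 0.823-fold (0.798 to 0.849), none past 2-fold. The median log2 ratio of the 6 genes was 1.85, and that of all genes tested was -0.02. Regardless of size, the interval lay above 1 for 4 of the 6 genes and 25.8% of all genes, and below 1 for 1 of the 6 and 28.4%.

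Set against WWP2 KO instead of wild type, the Itch KO library gave folds of 206 for Il5 (115 to 413), 14.5 for Il13 (12.6 to 16.7) and 7.52 for Il4 (5.16 to 11.3). Again 3 of the 6 genes were at least 2-fold higher and 0 lower, with 4.62% and 1.15% of all genes. Intervals lay above 1 for 4 of the 6 genes and 28.3% of all genes, and below 1 for 1 and 26.5%. The fold of Il13 was smaller here than against wild type, while those of Il5 and Il4 were close in both.

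The WWP2 KO library was compared with the wild-type library as well. Il13 was 1.89-fold the wild-type level (1.51 to 2.39), on 219 and 117 reads, and ranked at position 43 from the top of 9926 genes. It did not reach the 2-fold rule. Irf1 was 1.21-fold (1.17 to 1.24), the only other of the 6 genes with an interval above 1. Counting intervals lay above 1 for 14.5% of all genes and below 1 for 17.6%, so an interval off 1 is common in this pair. Il5, at 1.01-fold, had an interval from 0.398 to 2.57, and Il4, at 1.16-fold, one from 0.671 to 2.02. On 11 reads in each library a 2-fold difference of Il5 was not detectable. Rad50 was 1.03-fold (0.939 to 1.14) and Kif3a 1.15-fold (0.854 to 1.56). None of the 6 genes was at least 2-fold higher or lower, and the rule called 0.282% of all genes higher and 0.161% lower.

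In the labelled double KO against wild type, 4 of the 6 genes were at least 2-fold higher and 0 lower, beside 12.3% and 6.34% of all genes. Il5 reached 169 times its wild-type level (94.1 to 339), Il13 23.9-fold (19.9 to 29.0), Il4 15.9-fold (10.8 to 24.4) and Kif3a 4.27-fold (3.37 to 5.46). Il5 ranked at position 9 from the top, Il13 at 85, Il4 at 125 and Kif3a at 508. Rad50 was 1.09-fold (0.989 to 1.19) and Irf1 0.788-fold (0.765 to 0.813). Intervals lay above 1 for 4 of the 6 genes, with 37.3% of all genes, and below 1 for 1, with 40.6%. Against WWP2 KO the same 4 genes were at least 2-fold higher, with 11.6% of all genes, and 0 were lower, with 6.05%. The folds were 167 for Il5 (93.1 to 335), 13.7 for Il4 (9.51 to 20.4), 12.6 for Il13 (11 to 14.5) and 3.70 for Kif3a (2.95 to 4.67). Intervals again lay above 1 for 4 of the 6 genes (37.3% of all genes) and below 1 for 1 (40.4%).

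The labelled double KO was then set directly against Itch KO, to see what it had beyond the Itch label. Il4 was 1.82-fold higher (1.55 to 2.14), while Il5 was 0.811-fold (0.763 to 0.862) and Il13 0.872-fold (0.830 to 0.917). The gene past the 2-fold rule was Kif3a, at 2.69-fold (2.21 to 3.30), which made 1 of 6 higher and 0 lower beside 9.18% and 5.16% of all genes. Rad50 was 1.08-fold (0.981 to 1.18) and Irf1 0.958-fold (0.928 to 0.989). Intervals lay above 1 for 2 of the 6 genes and 39.7% of all genes, and below 1 for 3 and 36.2%, so small differences were widespread in this pair. Irf1 came to 1.01-fold when libraries were scaled by their total counts alone, so its direction depends on the scaling.

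How the labelled double KO departed from the product of the single knockouts can be read from a double ratio, the fold of the labelled double KO over Itch KO divided by the fold of WWP2 KO over wild type. It is 1 where the folds multiply, and each library enters it once. For Il13 it was 0.461 (exact 95% counting interval 0.363 to 0.583): the single folds multiplied to 51.9 and the labelled double KO was 23.9-fold. For Kif3a it was 2.33 (1.61 to 3.36), with a product of 1.83 against an observed 4.27-fold. For Irf1 it was 0.793 (0.760 to 0.827). The double ratios of Il4, at 1.57 (0.877 to 2.78), Il5, at 0.802 (0.315 to 2.04), and Rad50, at 1.04 (0.910 to 1.19), had intervals that included 1. Since the labelled double KO held Wwp2 reads, these ratios describe 4 libraries.

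**Figure D2:**
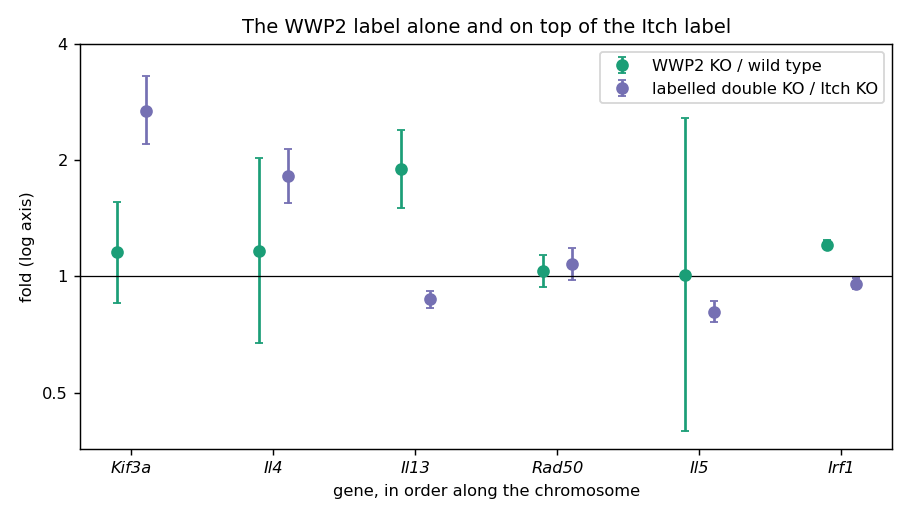
Fold of each of the 6 genes on a log axis in WWP2 KO over wild type and in the labelled double KO over Itch KO; points are ratios of single libraries and bars are 95% counting intervals. Il13 lies at 1.89 in the first pair and 0.872 in the second, and Kif3a at 1.15 and 2.69.

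The make-up of the cytokine reads within a library does not depend on scaling between libraries. Of the reads of Il4, Il5 and Il13 together, Il13 took 75.5% in wild type (exact binomial 95% interval 67.9 to 82.0, of 155 reads), 83.9% in WWP2 KO (78.9 to 88.1, of 261), 55.9% in Itch KO (54.6 to 57.2, of 5732) and 55.0% in the labelled double KO (53.7 to 56.3, of 5447). Il5 took 7.10% in wild type (3.60 to 12.3) and 4.21% in WWP2 KO (2.12 to 7.42), but 40.0% in Itch KO (38.7 to 41.2) and 36.5% in the labelled double KO (35.3 to 37.8). Il4 took 17.4% in wild type (11.8 to 24.3), 11.9% in WWP2 KO (8.21 to 16.4), 4.12% in Itch KO (3.62 to 4.66) and 8.45% in the labelled double KO (7.72 to 9.22). The 3 cytokines were therefore not raised in one proportion. Wild type held 10.6 Il13 reads per Il5 read (5.73 to 21.9), and Itch KO held 1.4 (1.33 to 1.48). The labelled double KO was close to that value at 1.51 (1.42 to 1.59), yet it held 6.52 Il13 reads per Il4 read (5.90 to 7.2) against 13.6 in Itch KO (11.9 to 15.6).

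**Figure D3:**
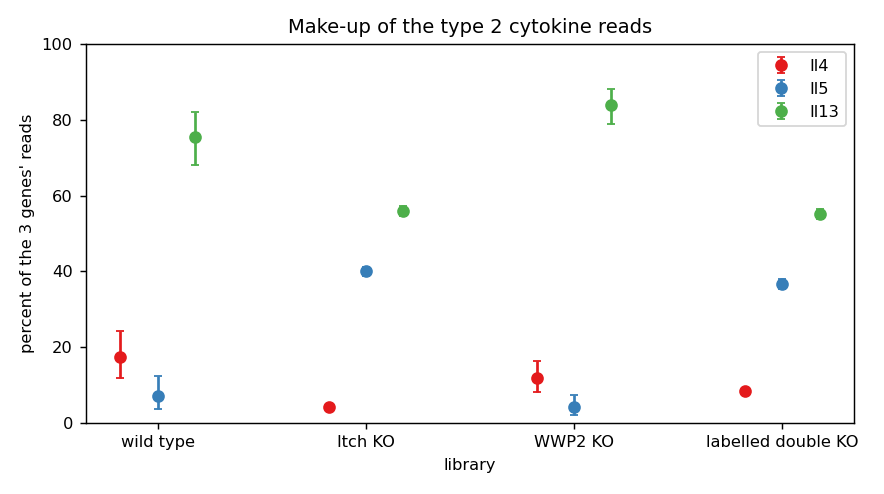
Percent of the summed Il4, Il5 and Il13 reads that each gene took in each library; bars are exact binomial 95% intervals. The share of Il5 is 7.10% in wild type and 4.21% in WWP2 KO, and 40.0% and 36.5% in the libraries with the Itch label.

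An additive model with a term for each label was fitted over 9926 genes with edgeR's quasi-likelihood test and Benjamini-Hochberg adjustment. Its 1 residual degree of freedom comes from the departure of the 4 libraries from additivity, which stands in for replicate error, and the labels are taken as given. For the Itch term Il5 was the single gene past an adjusted p of 0.05, or 0.0101% of genes, with a log2 coefficient of 7.53 and an adjusted edgeR p of 0.0111 (2.61e-06, 0.00640 and 0.0181 in the other edgeR fits and 9.67e-63 in DESeq2). Il13 had a coefficient of 4.2 and an adjusted edgeR p of 0.0986, and Il4 had 3.45 and 0.102. Their calls turned on the setting: adjusted p ranged from 6.91e-31 by DESeq2 to 0.266 with the Itch term alone in edgeR for Il13, and from 1.64e-09 to 0.266 by the same fits for Il4. In the fits with the minimum, Il4 and Il5 entered through the libraries with the Itch label, where they were high. A difference was thus required of them beforehand, and those p-values are no independent support for it. Kif3a (1.29, adjusted edgeR p 0.300), Irf1 (-0.45, 0.461) and Rad50 (0.04, 0.941) did not pass. For the WWP2 term edgeR called 0 genes of 9926, or 0%, with 207 at an unadjusted p under 0.05, and DESeq2 called 13. The adjusted edgeR p of the 6 genes for that term ranged from 0.864 to 0.935.

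Farther along the chromosome, the 15 named genes of the count table on each side of the row were examined in the RefSeq order, and 15 of these 30 neighbours reached the minimum of 2 CPM. Next to Kif3a lies Sept8, a septin gene of the cytoskeleton, with 25, 67, 29 and 236 reads. It was 2.68-fold the wild-type level in Itch KO (1.67 to 4.43) and 8.81-fold in the labelled double KO (5.82 to 13.9), and like Kif3a it was higher in the latter than in Itch KO (3.29-fold, 2.50 to 4.38). The nearest genes beyond Sept8, Ankrd43 and Shroom1, had 1 read or none per library. On the other side, next to Irf1, the carnitine transporter gene Slc22a5 had 294, 373, 310 and 326 reads and did not pass, and Slc22a21 and Slc22a4 had 3 reads or fewer per library.

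Next come Pdlim4 and P4ha2, both with a mean under 2 CPM. Pdlim4 had 16, 34, 20 and 56 reads. It was 2.12-fold the wild-type level in Itch KO (1.14 to 4.12) and 3.27-fold in the labelled double KO (1.85 to 6.10). P4ha2 had 20, 18, 10 and 9 reads, and was 0.420-fold in the labelled double KO (0.168 to 0.964). Beyond them lie the genes of 2 more cytokines that act on myeloid cells. Il3 had 16, 109, 3 and 182 reads over the same libraries, a pattern high in both libraries with the Itch label. It was 6.81-fold the wild-type level in Itch KO (4.01 to 12.3), 10.6-fold in the labelled double KO (6.36 to 19.0) and lower in WWP2 KO, on few reads. Csf2 had 121, 337, 143 and 89 reads. It was 2.78-fold the wild-type level in Itch KO (2.26 to 3.46) and did not pass in the labelled double KO, where it stood at 0.686-fold (0.516 to 0.910). At the far end past Kif3a, Tcf7, a factor of naive and memory T cells, was lower, with 16212, 6746, 16727 and 3257 reads. Of the 15 neighbours above the minimum, 3 were at least 2-fold higher and 1 lower in Itch KO against wild type, 0 and 1 in WWP2 KO, and 2 and 1 in the labelled double KO. The shares of all genes were 4.89% and 0.846%, 0.282% and 0.161%, and 12.3% and 6.34% in these comparisons. Il3 and Sept8 were under 2 CPM in wild type and passed the minimum through libraries where they were high. The neighbours' median log2 ratios were 0.07, 0.06 and -0.04, near those of all genes tested (-0.02, -0.01 and -0.03).

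**Figure D4:**
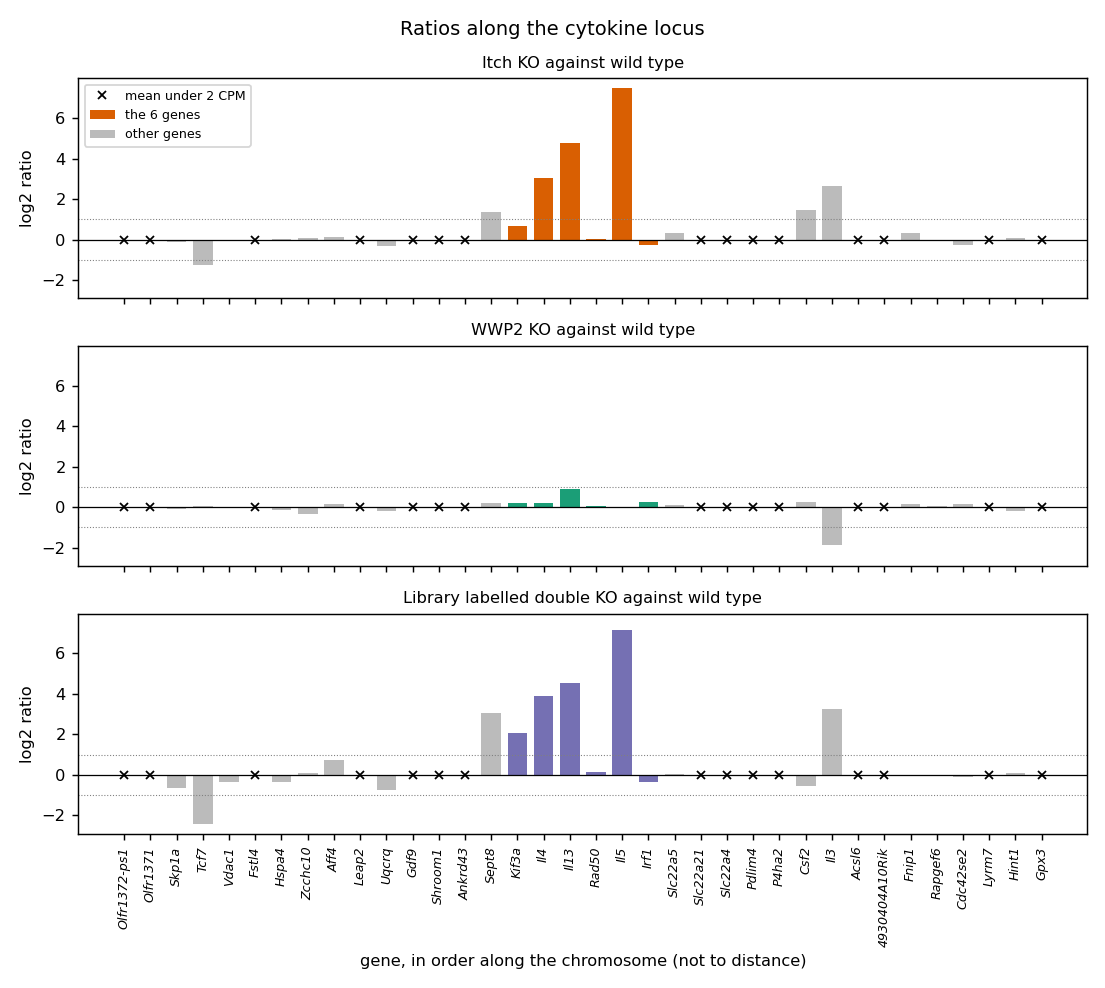
Log2 ratio to wild type (y axis, prior count of 2) of the 6 genes and 15 named genes on each side, in order along the chromosome and not to distance; crosses are genes with a mean under 2 CPM and dotted lines mark a log2 ratio of 1 in either direction. Il4, Il13 and Il5 stand out in both libraries with the Itch label, with Rad50 between them at 0.01 and 0.12, and Sept8, Csf2, Il3 and Tcf7 are the neighbours past the rule in Itch KO.

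Factors known to act on the cluster were counted from a list of 25 activators, of which 24 reached the minimum. In Itch KO, 5 were at least 2-fold higher than in wild type and 0 lower, with a median log2 ratio of 0.53, beside 4.89% and 0.846% of all genes. Gata3, the lineage factor that opens the cluster, had 621, 2814, 654 and 7536 reads. Maf, which acts on the Il4 promoter, had 470, 1173, 509 and 5066 reads, and the leucine zipper factor gene Nfil3 had 258, 678, 313 and 1930. All 3 were higher in the labelled double KO than in Itch KO, as Il4 was, whereas Il5 and Il13 were not. Jun, also past the rule in Itch KO, had 574, 1161, 719 and 2212 reads and was likewise higher in the labelled double KO. Gfi1, the remaining one, had 1864, 3901, 2034 and 2220 reads. In the labelled double KO it was 0.531-fold the Itch KO level (0.504 to 0.560), lower as Il5 and Il13 were. Junb had 8819, 14056, 8008 and 15843 reads and Stat6, the factor that relays the IL-4 signal, had 6426, 5784, 6337 and 4276, neither past the rule. In the labelled double KO 8 activators were higher and 1 lower, with a median of 0.30, beside 12.3% and 6.34% of all genes. Among them Nfatc2, which encodes an NFAT protein, stood at 670 reads in wild type and 2384 in that library, and Batf at 1967 and 5340. The lower one was Irf4, with 67135 and 34474 reads. In WWP2 KO 0 activators passed in either direction, beside 0.282% of all genes higher and 0.161% lower.

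A list of 21 genes that restrain the cluster had 20 members above the minimum. Zbtb32, whose product represses GATA3, was higher in both libraries with the Itch label, with 43, 160, 36 and 257 reads in the same order. Eomes, the other gene of the list past the rule as higher in Itch KO, had 162, 498, 133 and 124 reads. In the labelled double KO it was 4.30-fold lower than in Itch KO (3.53 to 5.28). Tbx21, the type 1 lineage factor gene, had 2402, 2754 and 2370 reads in the first 3 libraries and 1262 in the labelled double KO, 2.04-fold lower than wild type (1.91 to 2.19). Sox4, an inhibitor of GATA3, had 662, 493, 568 and 119 reads. Tcf7 was in this list too, although its product is also known to aid early Gata3 expression. The list had 2 genes higher and 1 lower in Itch KO, 0 and 0 in WWP2 KO, and 2 and 5 in the labelled double KO, with medians of 0.14, -0.01 and 0.10. The shares of all genes were 4.89% and 0.846%, 0.282% and 0.161%, and 12.3% and 6.34%, so the higher calls in the labelled double KO were near the share of all genes.

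Of the receptor genes, those of the IL-4 receptor were well read in these cells and Il5ra, Il13ra1 and Il13ra2 were not. Il4ra, which encodes the receptor chain shared by IL-4 and IL-13, had 6235, 9209, 6256 and 16103 reads, and was 2.41-fold the wild-type level in the labelled double KO (2.34 to 2.48). Il2rg, the common gamma chain that pairs with it, had 14204, 13703, 14013 and 16981 reads. Il5ra, the IL-5 receptor chain of eosinophils, had 6, 7, 8 and 14 reads, Il13ra1 had 0, 5, 6 and 11, and Il13ra2 had 0 in every library. Of 12 receptor and signalling genes above the minimum, 4 were higher and 1 lower in Itch KO, 0 and 0 in WWP2 KO, and 6 and 1 in the labelled double KO, with medians of 0.23, 0.01 and 0.65. Of all genes, 4.89% were higher and 0.846% lower in Itch KO, 0.282% and 0.161% in WWP2 KO, and 12.3% and 6.34% in the labelled double KO. The higher genes of the list included Socs3, a feedback inhibitor, with 354, 1279, 351 and 4794 reads. The lower one was Ptpn6, the gene of the phosphatase SHP-1, with 2391, 1174, 2214 and 1196.

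Type 2 helper genes elsewhere in the genome were counted next. Of 20 listed, 15 were above the minimum, and of these 11 were at least 2-fold higher and 0 lower in Itch KO (median log2 ratio 1.59), 0 and 0 in WWP2 KO (-0.08), and 13 and 1 in the labelled double KO (2.98). The corresponding shares of all genes were 4.89% and 0.846%, 0.282% and 0.161%, and 12.3% and 6.34%. Some of the 15, among them Il9 and Pparg, were under 2 CPM in wild type and passed the minimum through libraries where they were high, so they had to differ. Il9, another type 2 cytokine gene, had 1, 406, 4 and 41 reads, a pattern highest in Itch KO as for Il5 and Il13. Il1rl1, the IL-33 receptor gene, had 249, 1785, 266 and 19545 reads, and Epas1 had 298, 1134, 279 and 18116, patterns highest in the labelled double KO as for Il4. The likeness to the cytokines is in the highest library only, since the sizes differed. In the labelled double KO against Itch KO, Il5 was 0.811-fold, Il13 0.872-fold and Il4 1.82-fold. Pparg, a nuclear receptor gene, had 14, 91, 6 and 252 reads.

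Partners of the flanking genes were examined in the same way. Mre11a and Nbn, the other subunits of the Rad50 complex, had 737, 721, 705 and 786 reads and 1109, 977, 1191 and 889 reads, and like Rad50 did not pass in any comparison with wild type. Of 13 DNA break repair genes, 2 were higher and 0 lower in Itch KO, and 3 were higher and 1 lower in the labelled double KO; the medians were -0.03 and -0.01. In WWP2 KO 0 of the 13 passed in either direction. All genes gave 4.89% higher and 0.846% lower in Itch KO, 0.282% and 0.161% in WWP2 KO, and 12.3% and 6.34% in the labelled double KO. Of 12 kinesin-II and ciliary transport genes above the minimum, 0 passed in either direction in any comparison with wild type. In the labelled double KO against Itch KO, 2 were higher and 0 lower, beside 9.18% and 5.16% of all genes. Against WWP2 KO, 0 were higher and 1 lower in that library, beside 11.6% and 6.05%. Kif3b, the motor partner of Kif3a, had 2778, 3513, 3340 and 2951 reads, so the higher level of Kif3a in the labelled double KO was not accompanied by one of Kif3b. Kifap3, the gene of their adaptor, had 26, 19, 21 and 28.

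For Irf1, a list of its known targets had 18 members above the minimum. Their median log2 ratios to wild type were -0.29 in Itch KO, 0.17 in WWP2 KO and -0.35 for the labelled double KO, beside -0.28, 0.27 and -0.34 for Irf1 itself. Single targets ranged from -0.79 to 1.51 in Itch KO, -0.65 to 0.45 in WWP2 KO and -1.22 to 2.84 in the labelled double KO. A link between Irf1 and these targets was not tested. By the 2-fold rule there were 2 higher and 0 lower in Itch KO, 0 and 0 in WWP2 KO, and 2 higher and 2 lower in the labelled double KO, beside 4.89% and 0.846%, 0.282% and 0.161%, and 12.3% and 6.34% of all genes. Tap1, a peptide transporter of antigen presentation, had 11115, 9605, 12554 and 10327 reads. Casp1, at 64, 186, 65 and 503 reads, was one of the higher targets, and Gbp2, at 29574, 23390, 33725 and 13562, one of the lower in the labelled double KO. The 8 other genes of the IRF family had 1 higher (Irf5) and 0 lower in Itch KO, 0 and 0 in WWP2 KO, and 0 higher and 1 lower (Irf4) in the labelled double KO, against the same shares of all genes.

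The genes whose pattern over the 4 libraries was most like that of each cytokine were found by the Euclidean distance between their log2 ratios to wild type in the other 3 libraries, among 9196 named genes. For Il4 they were the inflammasome gene Nlrp3 (distance 0.45), the sugar transporter gene Slc2a6 (0.47) and the kinetochore gene Casc5 (0.47). For Il13 they were Kif18b (1.21), Pif1 (1.39) and Pros1 (1.46). For Il5 the nearest were Rnf152 (3.10), Il6 (3.19) and Gzma (3.29), each with a lower ratio than Il5 in Itch KO. The genes nearest Il4 and Il13 also had lower ratios there than those cytokine genes. The nearest gene was farther from Il5 than from either other cytokine gene. Several of these genes had few wild-type reads, among them Il6 with 1 and Rnf152 with 2. Kif3a was close to Ehbp1l1 (0.12), Esyt1 (0.12) and Zfp324 (0.13). Rad50 and Irf1, with small ratios, had close neighbours, Rbm10 (0.02) and Gvin1 (0.05) first among them.

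Other cells also transcribe Il4, Il5 and Il13, and in bulk RNA fewer cells of a type and less RNA per cell cannot be told apart. Of 10 mast cell and basophil markers, Fcer1a, Ms4a2, Tpsb2 and Cma1 had 0 reads in every library. Mcpt8 had 0, 0, 2 and 12 reads. Gata2 had 0 reads in wild type and WWP2 KO and was read in both libraries with the Itch label. Prss34 was read in the labelled double KO alone, and Cpa3 in every library but WWP2 KO. Gata2, Prss34 and Cpa3 had only a few reads wherever they were read. The whole list had 317 reads in Itch KO and 604 in the labelled double KO, nearly all from Kit and Il3ra. Presence or absence of these 3 genes is therefore near the floor. Of the 10 markers, 2 reached the minimum of 2 CPM. The summed level of that list ranged from 18.3 to 32.5 CPM, mostly from Kit (429, 188, 493 and 85 reads) and Il3ra (85, 126, 63 and 502). Of 6 eosinophil markers, Ear1 and Ear2 had 0 reads in every library, and the list summed to 2.94, 7.73, 2.39 and 7.32 CPM, mostly from Ccr3. Markers of type 2 innate lymphoid cells, 8 genes of which several are also T cell genes, summed to 336, 551, 322 and 1918 CPM, and Il1rl1 made up much of the last value. The part of such cells in the cytokine levels was not tested. T cell markers (8 genes) summed to 2081, 2124, 1983 and 2566 CPM in the same order, and CD8 markers (2 genes) to 7.44, 15.9, 6.53 and 7.05. The 6 B cell markers summed to between 1.51 and 3.63 CPM, the 8 myeloid markers to between 1.27 and 1.72, and the 7 natural killer and NKT markers to between 18.2 and 34.0.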

How the data were processed

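Per the labels' protocols, libraries were made from column-purified RNA after enrichment of mRNA. The authors deposited raw read counts per gene symbol, 1 column per library; the submitters' processing notes name HTSeq 0.7.1, TopHat 1.4.1, Bowtie 1.0.0 and the mm9 build. For annotation, strand setting and filters the value is not given in the sources used here, so reads of overlapping or antisense genes could be shared. From the counts, TMM factors (0.983 to 1.03) were computed with edgeR 4.0.16 in R 4.3.3, with DESeq2 1.42.0 as an alternative. Folds have exact conditional binomial 95% intervals, levels exact Poisson and shares exact Clopper-Pearson intervals, which cover counting error alone: reads are not independent molecules, and the labels mention no molecular identifiers. Intervals came from scipy 1.17.1 and plots from matplotlib 3.10.9, with pandas 2.3.3 and numpy 2.4.6 under Python 3.11.15. The interval and the model were tested on simulated data.

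The genes and lists were chosen with earlier results of these data known. Genes named are the 6 genes, Itch and Wwp2, a fixed set of regulators and partners, the 3 most like each cytokine gene, the neighbours past the rule or nearest, and up to 3 highest and lowest of each list. Cd4, Il2rg, Il13ra2, Jun, Gfi1, Pdlim4, P4ha2, the cell type markers and the genes most like Kif3a, Rad50 and Irf1 were named after their values were seen. Some genes the rule names are not reported here. RefSeq GRCm38.p6 served for gene order and promoters (98.7% of the 21937 symbols matched by name or synonym) and GENCODE M21 for exon lengths; the counts are of another build, so gene coordinates are not given. Alternatives were other scalings, prior count 0.5, no minimum or 10 CPM, and other model settings.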

Additional observations from a re-analysis of the deposited data

Results flagged for a closer look

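The WWP2 label went with opposite differences of Il13 in the pairs without and with the Itch label. Il13 was 1.89-fold in WWP2 KO against wild type and 0.872-fold in the labelled double KO against Itch KO. Irf1 was 1.21-fold in the first pair and 0.958-fold in the second, and the second value was 1.01-fold under scaling by total counts. The ratio of the second fold to the first was 0.461 for Il13 (exact 95% interval 0.363 to 0.583) and 0.793 for Irf1 (0.760 to 0.827). These intervals cover counting error only: each pair is 1 library against 1, so the difference between pairs could not be tested against replicate error. The ratio of folds was computed for the 6 genes alone, without a share of all genes beside it. The labelled double KO also held 1135 Wwp2 reads, against 4 in WWP2 KO. The second pair is therefore not a known contrast of WWP2 loss.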

How the results depend on the processing

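No paired analysis was possible because every library carries the number 1 and each genotype has a single library, which also means that none could be left out as a replicate. Over the scalings tried (TMM, median-of-ratios size factors, upper-quartile factors, total counts), and with the labelled double KO left out, 117 folds of the 6 genes stayed within their counting intervals and 3 did not. Those were all Irf1 under total counts: 0.828 in the labelled double KO against wild type, 0.674 against WWP2 KO and 1.01 against Itch KO, the last on the other side of 1; the cause was not tested. Under a 10 CPM minimum the count of the 6 genes at least 2-fold above Itch KO in the labelled double KO was 0, since Kif3a averaged 9.82 CPM, and against wild type and WWP2 KO it was 3. The other counts of the 6 genes were as reported under every alternative run, and all 18 recomputed double ratios stayed within their counting intervals.

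In the additive model, the Itch term called 1 gene higher and 0 lower in edgeR, 2 higher with median-of-ratios size factors, 466 higher and 76 lower with no minimum, and 492 higher and 99 lower by DESeq2. Il4 passed with no minimum in edgeR (adjusted p 0.00208) and by DESeq2 (1.64e-09), and Il13 likewise (0.000166 and 6.91e-31). The WWP2 term called 1, 4 and 13 genes higher in the same fits, against 0; the cause was not tested.

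The alternatives for double ratios and neighbours, and leaving the labelled double KO out of scaling and minimum, were added after seeing the data. The last kept all 12 folds of the single knockouts within their intervals. With no minimum, neighbours lower in WWP2 KO were 2, and in the labelled double KO 4 were higher and 3 lower. With 10 CPM, 0 neighbours were higher in Itch KO, 0 higher in the labelled double KO and 0 lower in WWP2 KO.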
